A study of Mus musculus with 11 samples.

Results

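Livers of male mice lacking Gsr were compared with wild-type (WT) livers for the transcripts of 9 enzymes that break down tyrosine and tryptophan, namely Tat, Hpd, Hgd, Gstz1, Fah, Tdo2, Kmo, Kynu and Haao. Members were all probe sets that the platform annotation gives to exactly 1 of these symbols, which made 10 probe sets of 9 genes, out of 12393 genes with such a probe set on the array. Tdo2 had 2 probe sets and each other gene had 1. All 10 matched a RefSeq gene under the same symbol.

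The groups were 6 Gsr-null and 5 WT livers, each from 1 male mouse of 15 to 20 weeks on the C57BL/6J background, taken between 2 and 4 in the afternoon. Gsr encodes glutathione reductase, which returns oxidised glutathione to its reduced form. The labels describe no treatment and give no allele for the loss of Gsr. RNA was measured on single-colour Affymetrix arrays, and values are on the log2 scale, so that a difference of 1 is a doubling.

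Both pathways are chiefly the work of hepatocytes. Tyrosine is stripped of its amino group by tyrosine aminotransferase (Tat), turned into homogentisate by hydroxyphenylpyruvate dioxygenase (Hpd), opened by homogentisate dioxygenase (Hgd), isomerised by maleylacetoacetate isomerase (Gstz1) and split into fumarate and acetoacetate by fumarylacetoacetate hydrolase (Fah). Gstz1 is a zeta-class glutathione transferase and uses reduced glutathione as its cofactor, which ties this step to the product of glutathione reductase. Tryptophan is opened by tryptophan dioxygenase (Tdo2), hydroxylated as kynurenine by Kmo, cleaved by kynureninase (Kynu) and passed by hydroxyanthranilate dioxygenase (Haao) towards NAD. Tat and Tdo2 control entry into the pathways and are classic glucocorticoid-induced genes of liver.

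Gsr was lower in Gsr-null livers on its representative probe set (Gsr-null minus WT -1.83, limma adjusted p = 1.82e-05), with no overlap between the groups. Whether that probe set lies in the disrupted part of the gene was not analysed here. Hepatocyte markers were high in both groups, the summed signal of 5 of them lying between 16.2 and 16.4 in Gsr-null and between 16.1 and 16.4 in WT livers on the log2 scale. None of the 4 kidney markers on the array exceeded 4 in 5 samples. Arrays differed in 2 measures whose ranges overlapped between genotypes. For control transcripts (Gapdh and Actb) the signal at the 3' end minus that at the 5' end reflects RNA integrity and labelling and is called the 3' gradient here. It was 0.572 to 0.703 in 3 Gsr-null and 0.544 to 0.631 in 2 WT samples, the low-gradient set, and 1.199 to 1.25 in 3 Gsr-null and 1.35 to 1.75 in 3 WT samples, the high-gradient set. Within the high-gradient set each WT array had a higher gradient than each Gsr-null array. Differences within that set are therefore not matched for the gradient. The number of probe sets above a log2 value of 4 was 9094 to 9551 on Gsr-null and 9377 to 9603 on WT arrays.

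None of the members passed the test. Limma was run on every probe set that exceeded 4 on the log2 scale in 5 or more livers, with Benjamini-Hochberg adjustment over all 9560 of them, and 8 of the 9 genes and 9 of the 10 probe sets entered. Limma called 0 of 9 member probe sets at an adjusted p under 0.05, against 0.387% of all tested probe sets. At an unadjusted p under 0.05 there was 1 of 8 member genes, Tat, against 8.78% of all tested genes. The groups overlapped for each of the 10 probe sets, while 1.36% of all tested probe sets had no overlap. The median Gsr-null minus WT difference was -0.039 over the 8 tested member genes and -0.032 over all 6022 tested genes. Among the 8, 6 differences were negative and 2 positive, but Hpd and Fah became positive when arrays were shifted to 1 median, and Fah also under quantile normalization. In whole liver, fewer hepatocytes and less RNA per hepatocyte cannot be told apart.

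**Figure D1:**
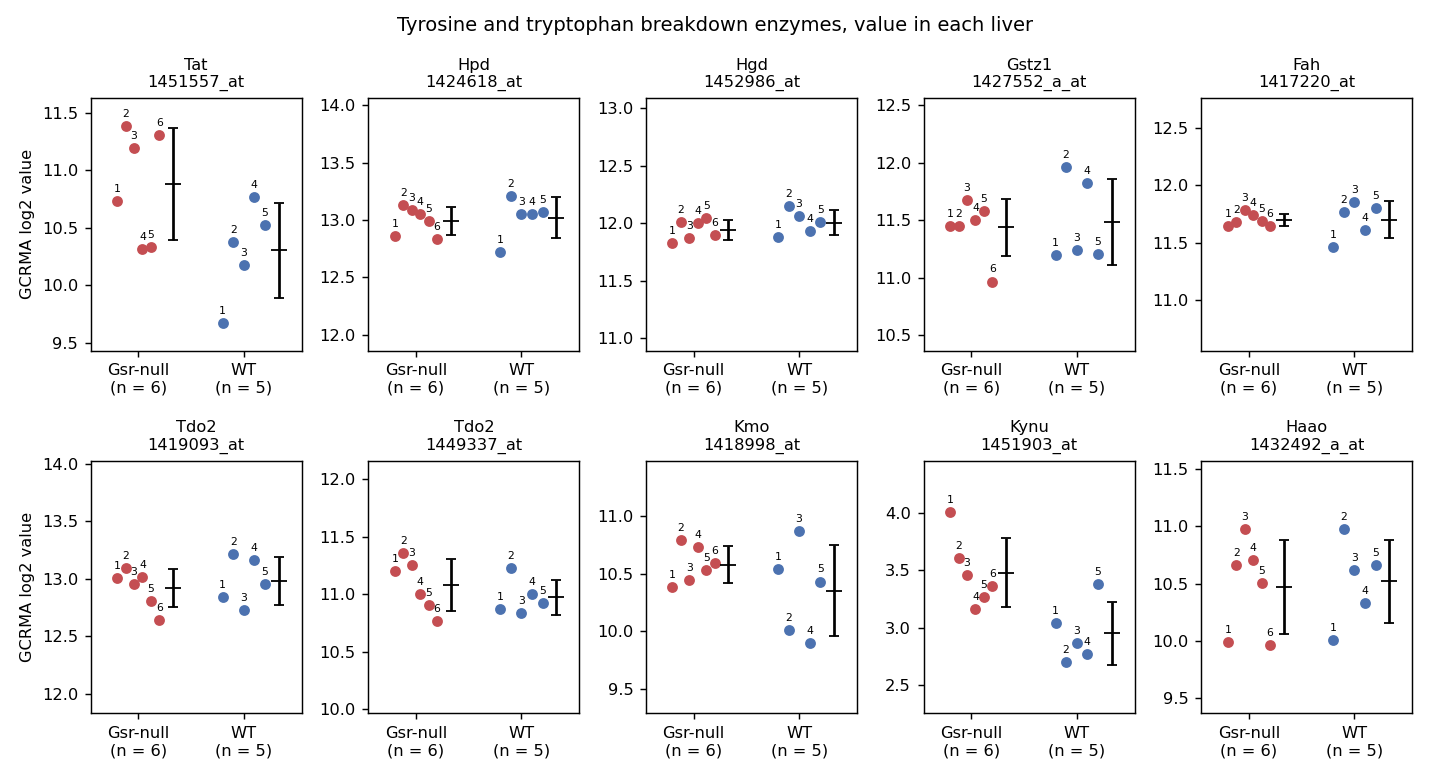
GCRMA log2 value (y axis) of each of the 10 member probe sets in 6 Gsr-null livers (red, left) and 5 WT livers (blue, right), numbered by replicate, with the group mean and SD as black bars; each panel spans the same height. The groups overlap in every panel, and Tat has Gsr-null samples 2, 3 and 6 above all WT samples.

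Tat, the first enzyme of tyrosine breakdown, had the largest difference of the tested members. Tat was 10.74, 11.39, 11.19, 10.32, 10.33 and 11.31 in Gsr-null samples 1 to 6, against 9.67, 10.38, 10.18, 10.77 and 10.52 in WT samples 1 to 5. Gsr-null samples 2, 3 and 6 lay above every WT sample, sample 1 lay just under the highest WT value, and samples 4 and 5 lay within the WT range. Tat averaged 10.88 ± 0.485 in Gsr-null (SD, n = 6) and 10.30 ± 0.414 in WT livers (SD, n = 5). The difference was 0.58 (SE 0.251, 95% confidence interval 0.030 to 1.12), and it did not pass the test over all probe sets (limma adjusted p = 0.559). Within the low-gradient and within the high-gradient set it was 0.53. It was 0.37 without Gsr-null samples 2 and 3, whose arrays had a higher 5th percentile (1.79 and 1.76) than the others. With 1 sample left out the difference was 0.42 to 0.69. The 0.42 came without WT sample 1, which had the lowest Tat value (limma adjusted p = 0.853). Tat lies on chromosome 8, as Gsr does, but their distance was not examined and no part of position in the difference was tested.

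The enzymes that follow Tat in the route had differences close to 0. Hpd, which makes homogentisate, was 12.86, 13.13, 13.09, 13.06, 12.99 and 12.83 in Gsr-null samples 1 to 6, against 12.72, 13.21, 13.05, 13.05 and 13.07 in WT samples 1 to 5. WT sample 1 and Gsr-null samples 6 and 1 were the 3 lowest. Hpd averaged 12.99 ± 0.124 in Gsr-null and 13.02 ± 0.180 in WT livers, a difference of -0.028 with a 95% confidence interval of -0.28 to 0.22. Hgd, which opens the aromatic ring, ranged from 11.83 to 12.05 in Gsr-null and from 11.88 to 12.15 in WT livers. Its difference was -0.064, with an interval of -0.28 to 0.15.

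Gstz1, the glutathione-dependent isomerase, varied more between mice than between genotypes. Gstz1 was 11.45, 11.45, 11.67, 11.50, 11.58 and 10.97 in Gsr-null samples 1 to 6, against 11.20, 11.96, 11.24, 11.83 and 11.21 in WT samples 1 to 5. Gsr-null sample 6 was the lowest of all, and WT samples 2 and 4 were the highest. Gstz1 averaged 11.44 ± 0.246 in Gsr-null and 11.49 ± 0.375 in WT livers, and the difference was -0.050 (95% confidence interval -0.45 to 0.34, limma adjusted p = 0.999). It was -0.37 in the low-gradient and 0.13 in the high-gradient set. WT samples 2 and 4 are the 2 WT samples of the low-gradient set. The Gstz1 probe set, like that of Haao, is of the _a_at type, which can bind several transcripts.

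Fah, which completes tyrosine breakdown, had the smallest difference of the 10 probe sets. Fah was 11.65, 11.68, 11.79, 11.74, 11.69 and 11.65 in Gsr-null samples 1 to 6, against 11.46, 11.77, 11.86, 11.61 and 11.80 in WT samples 1 to 5. The Gsr-null values all fell inside the WT range. Fah averaged 11.70 ± 0.055 in Gsr-null and 11.70 ± 0.161 in WT livers (SD, n = 6 and n = 5). The difference was -4.21e-05, with a 95% confidence interval of -0.22 to 0.22.

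Tdo2, the entry enzyme of tryptophan breakdown, was measured by 2 probe sets whose differences had opposite signs and intervals that included 0. On the representative one, with the higher mean, Tdo2 was 13.00, 13.09, 12.96, 13.02, 12.80 and 12.64 in Gsr-null samples 1 to 6, against 12.84, 13.22, 12.73, 13.16 and 12.96 in WT samples 1 to 5. Gsr-null sample 6 was lowest and WT samples 2 and 4 were highest, the same samples that bounded Gstz1. The difference was -0.061 (95% confidence interval -0.34 to 0.22) on this probe set and 0.11 (interval -0.18 to 0.40) on the other. In the low-gradient and the high-gradient set it was -0.17 and -0.022 on the representative probe set, and 0.16 and 0.013 on the other. In the same order the representative probe set averaged 13.19 and 12.84 in WT and 13.02 and 12.82 in Gsr-null livers. After subtracting each genotype's mean the 2 probe sets correlated over the 11 samples (Pearson's r = 0.846, exact permutation p = 0.000301, Spearman's rho = 0.818, exact permutation p = 0.00159). Without the 2 samples farthest from the median r was 0.769, and within the 6 samples of the high-gradient set it was 0.964.

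Kmo, the kynurenine hydroxylase of the mitochondrial outer membrane, was 10.39, 10.80, 10.44, 10.73, 10.53 and 10.59 in Gsr-null samples 1 to 6, against 10.54, 10.01, 10.87, 9.90 and 10.43 in WT samples 1 to 5. The Gsr-null samples sat close together inside the WT range, and only WT samples 2 and 4 were below all of them. Kmo averaged 10.58 ± 0.160 in Gsr-null and 10.35 ± 0.396 in WT livers. The difference was 0.23 (95% confidence interval -0.15 to 0.60, limma adjusted p = 0.867), and it was 0.59 in the low-gradient and 0.0032 in the high-gradient set. It was 0.12 without WT sample 4, 0.14 without WT sample 2, 0.36 without WT sample 3 and 0.13 with array weights. With the low- and high-gradient sets as a block the Kmo difference was 0.26 (limma adjusted p = 0.629). Whether the Kmo difference itself changes with the set was not tested.

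Kynu, the kynureninase, was the 1 member that did not enter the test, since Gsr-null sample 1 alone exceeded a log2 value of 4. Kynu was 4.01, 3.60, 3.46, 3.17, 3.27 and 3.36 in Gsr-null samples 1 to 6, against 3.04, 2.70, 2.86, 2.77 and 3.38 in WT samples 1 to 5. WT sample 5 overlapped the Gsr-null values and the other 4 WT samples lay below them. Kynu averaged 3.48 ± 0.301 in Gsr-null and 2.95 ± 0.273 in WT livers. With no filter the difference of 0.53 had a 95% confidence interval of 0.17 to 0.88 and a limma adjusted p = 0.442 over 22626 probe sets (unadjusted p = 0.00731). It was 0.96 in the low-gradient and 0.17 in the high-gradient set. At this signal log2 differences are compressed, and apart from Gsr-null samples 2 and 3 the 5th percentile of the arrays was 1.53 to 1.62.

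Kmo and Kynu are also made by macrophages and other myeloid cells, so myeloid markers are given beside them. Of 8 Kupffer cell and macrophage markers on the array 7 were tested and limma called 0 of them. Among the 7, 6 differences were negative and 1 positive, with a median of -0.14, beside -0.032 over all tested genes. The summed signal of the 8 ranged from 10.2 to 11.7 in Gsr-null and from 10.8 to 11.5 in WT livers on the log2 scale. All 6 neutrophil and monocyte markers on the array failed the filter, and their summed signal ranged from 5.17 to 7.73 in Gsr-null and from 5.15 to 5.33 in WT livers. No marker of either list was listed at 0. S100a8, a neutrophil and monocyte protein picked out after its values were seen, was 6.63 in Gsr-null sample 1, which was also the highest for Kynu, and 2.72 to 3.63 in the other Gsr-null samples, against 2.53 to 3.16 in WT samples. The part of these cells in the Kynu values was not tested.

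Haao, which directs the pathway to NAD, was 9.99, 10.66, 10.98, 10.70, 10.51 and 9.96 in Gsr-null samples 1 to 6, against 10.01, 10.97, 10.62, 10.33 and 10.66 in WT samples 1 to 5. Gsr-null samples 1 and 6 and WT sample 1 stood lowest and close together, and Gsr-null sample 3 and WT sample 2 stood highest. Haao averaged 10.47 ± 0.410 in Gsr-null and 10.52 ± 0.363 in WT livers. The difference was -0.052, with a 95% confidence interval of -0.53 to 0.42.

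**Figure D2:**
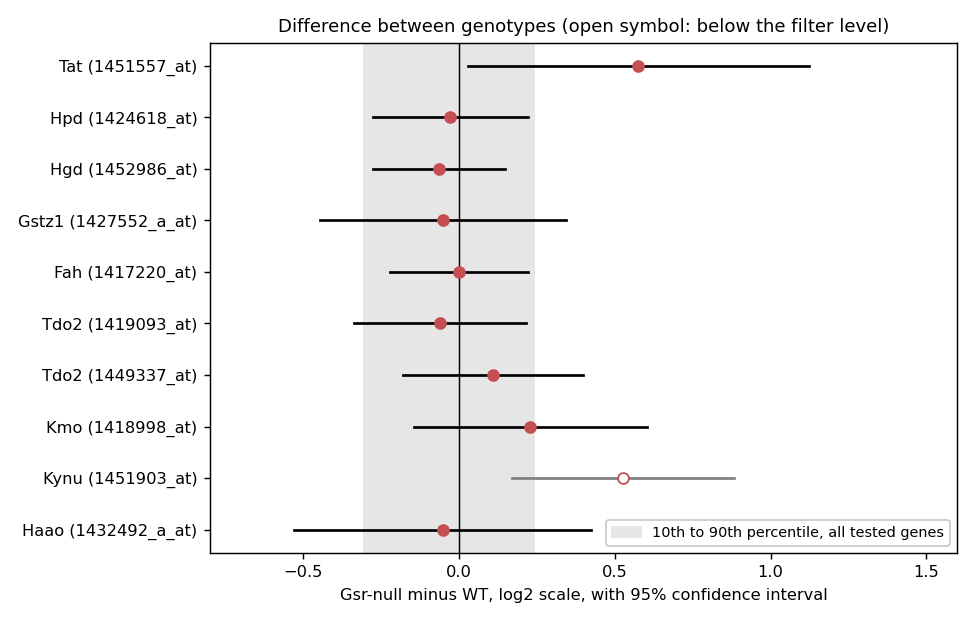
Gsr-null minus WT difference on the log2 scale (x axis) of each member probe set (rows) with its 95% confidence interval from limma; the shaded band holds the 10th to 90th percentile of all 6022 tested genes, -0.31 to 0.24. Intervals of 8 of the 10 probe sets include 0, and those of Tat and of Kynu, which is below the filter level (open symbol, interval from the fit with no filter), do not.

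The spread between mice of one genotype was narrow for some members and wide for others. The residual SD, after removing genotype means, was 0.097 for Hgd, 0.115 for Fah and 0.152 for Hpd, each under 0.159, the 10th percentile of all 6022 tested genes. Each tested member averaged above 10, and over the 836 tested genes at that level the 10th percentile was 0.121, below the value of Hpd. The residual SD was 0.39 for Haao and 0.455 for Tat, against a 75th percentile of 0.392 over all tested genes and of 0.320 over those 836. Over the 8 tested members the median was 0.238, beside 0.283 over all tested genes and 0.223 over the 836.

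**Figure D3:**
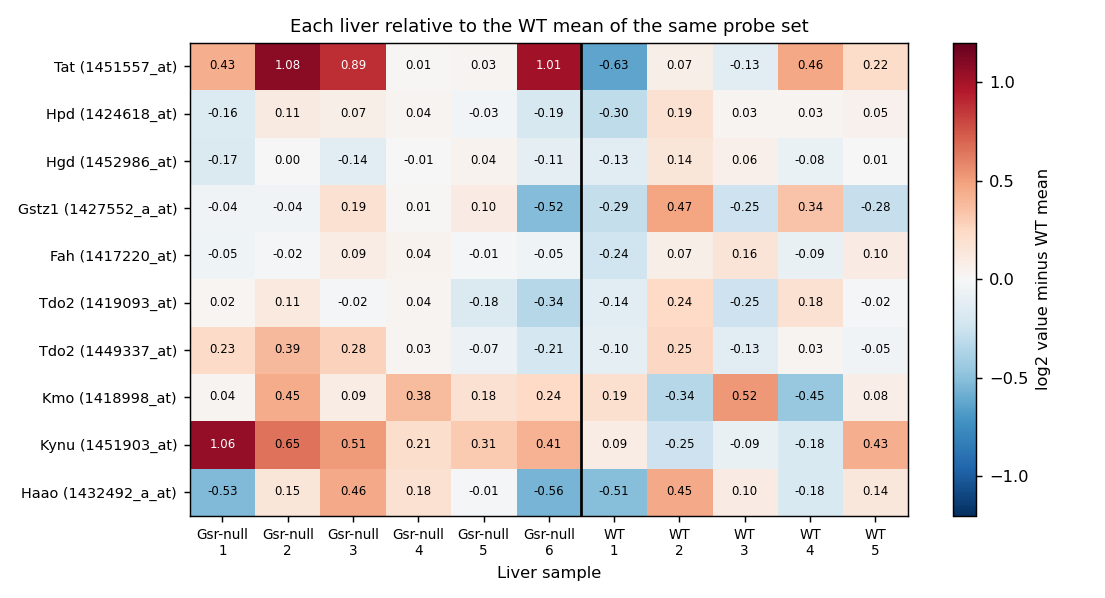
Log2 value of each member probe set (rows) in each liver (columns, Gsr-null left of WT) minus the WT mean of that probe set, as colour and number. Tat is 0.89 to 1.08 above the WT mean in Gsr-null samples 2, 3 and 6 and 0.01 and 0.03 above it in samples 4 and 5, while Hgd and Fah stay within 0.24 of it in every liver.

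Of 28 pairs of members, 2 varied together from mouse to mouse within the genotypes by Pearson's r and 1 by Spearman's rho. How often pairs of other tested genes do so was not examined, so this cannot be read as particular to these enzymes. Over 5935 genes outside the members the 95th percentile of r was 0.517 with Tat and 0.713 with Tdo2. Correlations were computed for the 28 pairs of the 8 tested genes over the 11 samples, after subtracting genotype means, with exact permutation tests within genotypes and Benjamini-Hochberg adjustment over the 28 pairs. Hpd and Haao had the highest coefficient (Pearson's r = 0.898, exact permutation p = 0.00059, adjusted p = 0.0165). Their Spearman's rho was 0.927 (exact permutation p = 0.00132, adjusted p = 0.0369), r was 0.863 without the 2 samples farthest from the median of Hpd, and r was 0.960 within the 6 samples of the high-gradient set. The other set held 5 samples, too few for a coefficient. The adjusted p for Hpd with Haao lay between 0.0078 and 0.0826 when 1 sample was left out, and it was above 0.05 without WT sample 1 and without Gsr-null samples 1, 5 or 6. Fah and Haao gave r = 0.740 (exact permutation p = 0.00336, adjusted p = 0.047) and rho = 0.709 (exact permutation p = 0.0133, adjusted p = 0.159), with r = 0.790 without the 2 samples farthest from the median of Fah and 0.805 within the high-gradient set. That second relation lost its call when arrays were shifted to 1 median (r = 0.497, adjusted p = 0.4), under quantile normalization (r = 0.690, adjusted p = 0.157) and on leaving out WT sample 1, 4 or 5 or Gsr-null sample 1, 3, 4, 5 or 6 (adjusted p = 0.0593 to 0.261). The other 26 pairs did not pass, among them Tat with Tdo2 (r = 0.252, exact permutation p = 0.466, adjusted p = 0.767).

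Hpd and Haao also followed the number of probe sets above a log2 value of 4 on the array, which was 9094 on the array of Gsr-null sample 6 and 9377 on that of WT sample 1. Over the 11 samples, with genotype means removed, r was 0.673 for Hpd (exact permutation p = 0.000556, adjusted p = 0.00444 over the 8 members) and 0.753 for Haao (exact permutation p = 0.00178, adjusted p = 0.00713). Spearman's rho was 0.815 for Hpd (exact permutation p = 0.000972) and 0.847 for Haao (exact permutation p = 0.000579). Without the 2 arrays farthest from the median the coefficients were 0.479 for Hpd and 0.626 for Haao, and within the 6 samples of the high-gradient set they were 0.729 for Hpd and 0.879 for Haao. The other 6 members did not pass, with r between -0.126 and 0.661. The share of all tested genes that follow this array measure was not examined, so following it cannot be read as particular to Hpd and Haao. The part of this array measure in the relation between Hpd and Haao was not tested.

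**Figure D4:**
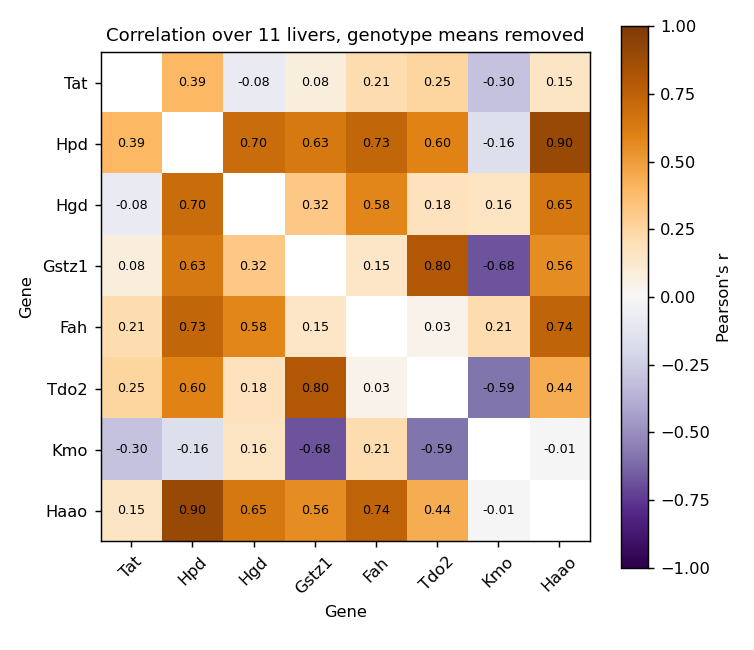
Pearson's r between the 8 tested members over 11 livers after removing genotype means (colour and number, both axes list the genes). Hpd with Haao stands highest at 0.90. Kmo has negative coefficients with Gstz1, -0.68, and with Tdo2, -0.59, and neither passed (exact permutation test, adjusted p = 0.232 and 0.248). Within the high-gradient set those coefficients were 0.097 and -0.19.

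The 250 bases before the start of Hpd and of Haao, the pair with the highest coefficient, are shown to set the sequences of 2 members that moved together side by side. They are from RefSeq, build GRCm38.p6, at chr5:123182724-123182973 on the minus strand for Hpd and at chr17:83846791-83847040 on the minus strand for Haao. Capitals mark matches on either strand to 6 motifs searched: the TATA box TATAAA, the CCAAT box CCAAT, the glucocorticoid response half-site TGTTCT, the cAMP response element TGACGTCA, the GC box GGGCGG and the HNF1 half-site GTTAAT.
Hpd: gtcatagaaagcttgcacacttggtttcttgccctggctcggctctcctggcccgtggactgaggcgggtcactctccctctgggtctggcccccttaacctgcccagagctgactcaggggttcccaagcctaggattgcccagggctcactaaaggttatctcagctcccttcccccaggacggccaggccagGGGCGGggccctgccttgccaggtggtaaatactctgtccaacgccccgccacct
Haao: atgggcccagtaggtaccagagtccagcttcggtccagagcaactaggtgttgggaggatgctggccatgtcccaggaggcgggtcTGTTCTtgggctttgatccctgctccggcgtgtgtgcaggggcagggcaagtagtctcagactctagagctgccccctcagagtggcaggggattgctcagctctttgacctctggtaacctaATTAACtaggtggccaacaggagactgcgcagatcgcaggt
The Hpd window held 1 GC box, first base 55 before the start, and the Haao window held 1 glucocorticoid response half-site, 164 before the start, and 1 HNF1 half-site on the opposite strand, 41 before the start. No motif searched was found in both windows and none of the matches overlapped. Of all 32851 windows of the same length, 32.7% held a GC box, 16.1% a glucocorticoid response half-site and 6.43% an HNF1 half-site. Windows were found for 8 of the 9 genes. A match describes the letters and shows no binding.

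Among tested genes outside the members, with clone and predicted-gene names passed over, those whose pattern over the 11 samples was most like Tat, by Pearson's r after removing genotype means, were Pdia4 (r = 0.861, rho = 0.791), Oat (r = 0.841, rho = 0.9) and Nedd8 (r = 0.834, rho = 0.836). Pdia4 is a disulfide isomerase of the endoplasmic reticulum, Oat is ornithine aminotransferase and Nedd8 is a ubiquitin-like protein. For Tdo2 they were Gnai3 (r = 0.979, rho = 0.973), a G protein subunit, Gclc (r = 0.943, rho = 0.952), the catalytic subunit of the first enzyme of glutathione synthesis, and Lgals9 (r = 0.937, rho = 0.955), a galectin. These were picked as the highest of 5935 genes, so no p is given. Gnai3 was higher in the low-gradient set (WT 9.30 and 9.39, Gsr-null 9.15 to 9.24) than in the high-gradient set (WT 8.80 to 9.07, Gsr-null 8.66 to 9.07). Gclc in WT livers was 11.28 and 11.41 in the low-gradient and 9.82 to 10.31 in the high-gradient set. In Gsr-null livers the sets overlapped for Gclc. The part of the 3' gradient in these coefficients was not tested. The 95th percentile of r over those genes was 0.517 with Tat and 0.713 with Tdo2. None of the 6 was called between genotypes, and their limma adjusted p lay between 0.692 and 0.993.

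Genes beside the members in the same routes were likewise without a call, against 0.432% of all tested genes called. Limma called 0 of 3 tested genes that serve phenylalanine and tetrahydrobiopterin, 0 of 7 aminotransferases and enzymes beside the kynurenine route, 0 of 5 genes of nicotinamide and NAD and 0 of 2 genes of amino acid transport. At an unadjusted p under 0.05 there was 1 in each of the first 2 lists and 0 in the others. Gch1, which makes the precursor of the cofactor of phenylalanine hydroxylase, was 9.22 ± 0.254 in Gsr-null and 9.68 ± 0.278 in WT livers (SD, n = 6 and n = 5), a difference of -0.45 (limma adjusted p = 0.419). Ido2, a second tryptophan-opening enzyme, was 4.66 ± 0.287 in Gsr-null and 4.18 ± 0.191 in WT livers, a difference of 0.48 (limma adjusted p = 0.342). Ido2 thus lay close to the filter level of 4, and low values are compressed. Nnmt, which methylates nicotinamide, differed by -0.98 (limma adjusted p = 0.695), and Slc38a4, an amino acid carrier, by -0.23 (limma adjusted p = 0.92).

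Because Tat and Tdo2 respond to glucocorticoids and fasting, genes with such a response were set beside them. Of 15 tested, 7 had a positive and 8 a negative difference, with a median of -0.047, and limma called 0. Over all tested genes 2571 of 6022 differences were positive and the median was -0.032. One reached an unadjusted p under 0.05, Tsc22d3, a glucocorticoid-induced leucine zipper protein, at 0.60 (SE 0.273, limma adjusted p = 0.592). Among enzymes for the breakdown of other amino acids, 15 of 20 tested genes had a positive and 5 a negative difference, with a median of 0.07, and limma called 0, with 2 at an unadjusted p under 0.05, against 8.78% of all tested genes. The groups did not overlap for 1 of those 20, Gldc, a subunit of the glycine cleavage system picked out after its values were seen, against 1.51% of all tested genes. Aldh4a1, of proline breakdown, had the smallest p of that list, at 0.81 (SE 0.191, limma adjusted p = 0.149).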

How the data were processed

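Liver RNA from 6 Gsr-null and 5 WT mice was hybridised to single-colour Affymetrix arrays after biotin labelling, per the labels' protocols. Values per probe set were deposited as 1 column per sample and taken as log2, since their range and quantiles fit that scale. GCRMA was the authors' method, per the submitters' processing notes. The version, filters and batches are not given in the sources used here. GCRMA corrects background by probe sequence and normalizes between arrays, so low values are compressed. Scanner files were not used here, and the number of arrays limits the precision.

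Of 22690 probe sets 64 controls were left out, and 20380 others had 1 gene symbol, 691 several and 1555 none. Those exceeding 4 on the log2 scale in 5 or more samples, 9560 in all, entered lmFit and eBayes of limma 3.58.1 (R 4.3.3), with adjustment over all of them. Where a gene had several tested probe sets, the one with the highest mean stood for it. The scripts were tested on simulated data. Figures were drawn with matplotlib 3.10.9. Promoter windows came from RefSeq, and the array's annotation names no genome build.

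The named genes are all 9 members, Gsr, the tested gene with the smallest p of each pathway list (no list gene was called), and the 3 genes most like Tat and like Tdo2, with clone and predicted-gene names passed over. Gldc and S100a8 were named after their values were seen. The members and lists were chosen with earlier results of these data known. Alternatives covered filters, scaling, variance models, blocks, the threshold, probe set averaging and omitted samples. The correlation alternatives were added after the data were seen. Same-numbered samples of the genotypes were not treated as pairs, and their deviations correlated at -0.243 to 0.036. The Gsr-null titles also carry another numbering, which was not used.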

Additional observations from a re-analysis of the deposited data

Results flagged for a closer look

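Gstz1, the glutathione-dependent isomerase, was 10.97 in Gsr-null sample 6, while the other 5 livers of that genotype lay between 11.45 and 11.67, so that 1 sample stood far from the rest of its group. This was 1 of 20 groups of values examined, the number that chance alone gives.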

How the results depend on the processing

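No member was called under any of 23 alternatives, and the median over members stayed between -0.096 and 0.04. Of 198 values of the 9 tested member probe sets under alternatives, 172 kept their sign and side of the threshold, 26 changed sign and 0 were called (smallest limma adjusted p = 0.446). The causes were not tested. With a quantile normalization Fah was 0.010. With arrays shifted to 1 median Hpd was 0.0077 and Fah 0.036. With array weights Gstz1 was 0.069 and Tdo2 0.018. With the low- and high-gradient sets as a block Fah was 7.57e-05. Without Gsr-null samples 2 and 3 the second Tdo2 probe set was -0.0042. With the replicate number as a block Hpd was 0.0040, Gstz1 0.044, Fah 0.010 and Haao 0.049, and the calls over all probe sets dropped to 2 higher and 1 lower, against 16 and 21 without it. For 0 of 5 WT samples the same-numbered Gsr-null sample was the best correlated, a check too small to exclude pairing. Leaving out 1 sample gave Hpd -0.10 to 0.019, Gstz1 -0.12 to 0.068, Fah -0.059 to 0.040 and Haao -0.18 to 0.061. Those calls became 7 higher and 7 lower when the filter was raised to 6 and fewer probe sets entered, 3 higher and 4 lower with Gsr-null samples 2 and 3 left out, and 25 higher at an adjusted p under 0.1. They were 9 to 21 higher and 5 to 19 lower with 1 sample left out. Gsr stayed called, at -1.93 to -1.77. The r of Hpd with Haao was 0.809 to 0.931 over 13 alternatives and kept its call in 9, and that of Fah with Haao was 0.497 to 0.809 and kept it in 3. Signals near the floor limit what Kynu can show.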

Other observations

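Enzymes for the breakdown of other amino acids held the only tested gene of the pathway lists whose representative probe set had no overlap between genotypes, Gldc. Gldc was 9.51, 10.29, 9.73, 9.62, 9.31 and 9.11 in Gsr-null samples 1 to 6, against 8.06, 9.07, 8.66, 9.004 and 8.49 in WT samples 1 to 5. The lowest Gsr-null value lay just above the highest WT value. Gldc differed by 0.94 (SE 0.229, limma adjusted p = 0.16). Aldh4a1 was 8.63, 9.01, 9.20, 8.62, 8.49 and 8.32 in Gsr-null samples 1 to 6, against 7.52, 8.38, 7.75, 8.08 and 7.79 in WT samples 1 to 5. Gsr-null sample 6 alone lay below a WT sample, sample 2. Both genes failed the correction over all probe sets.

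Of the 15 tested glucocorticoid and fasting responsive genes, 7 had a positive and 8 a negative difference. Only Tsc22d3 among them was tested for correlation with Tat. On its second tested probe set, looked at after the values were seen, Tsc22d3 was 7.54, 7.93, 8.48, 6.22, 6.57 and 7.86 in Gsr-null samples 1 to 6, against 6.70, 6.87, 6.88, 6.78 and 6.31 in WT samples 1 to 5. Samples 1, 2, 3 and 6 lay above every WT sample, and samples 4 and 5 did not. With genotype means removed this probe set and Tat gave r = 0.679 (exact permutation p = 0.0377, adjusted p = 0.0566 over 3 relations) and rho = 0.655 (exact permutation p = 0.0506), with r = 0.656 without the 2 samples farthest from the median and 0.631 within the 6 samples of the high-gradient set. On the representative probe set r was 0.451 (exact permutation p = 0.205) and rho 0.418 (exact permutation p = 0.235). The relation therefore did not pass on either. The 3 relations of the adjustment were Tat with each of these Tsc22d3 probe sets and the Tdo2 probe sets with each other. The last sets 1 gene against itself, and its small p lowered the adjusted p of 0.0566.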
